A study of Oryctolagus cuniculus with 12 samples.

Results

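Solute carrier genes encode the membrane transport proteins named SLC followed by a family number, and they were followed here in the thoracic aorta of rabbits with an experimental coarctation. A member was any gene whose rabbit symbol starts with SLC and a digit and that had at least 1 probe on the array, and each gene was represented by its brightest probe. The 1264 genes that could be named on the array included 60 solute carrier genes with 186 probes, and 44 of the 60 were detected on enough arrays to be tested.

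Male New Zealand white rabbits contributed 1 array each, 12 arrays in all, in 3 groups of 4. At about 10 weeks of age the descending aorta of the operated rabbits was narrowed to a gradient of 20 mmHg with a suture. A permanent silk suture gave the CoA group, a model of untreated coarctation. A degradable Vicryl suture gave the Corrected group, in which the vessel reopens with some narrowing left. Control rabbits were non-experimental animals, and no sham operation is described, so the effect of the operation and that of the narrowing cannot be told apart. RNA came from a 4 mm ring of aorta between the coarctation and the left subclavian artery, taken at 32 weeks of age, and was hybridised to a single-colour Agilent rabbit array. All groups shared sex, breed, age and vessel segment. The whole ring was lysed, so a fall in a transcript can stand for fewer cells of a type or for less RNA per cell, and these cannot be told apart.

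Solute carriers move solutes across the plasma membrane and across the membranes of organelles without burning ATP themselves. Some let a solute run down its own gradient, others couple it to sodium, protons or chloride, and others exchange one solute for another. In the arterial wall they supply glucose, amino acids and nucleosides to smooth muscle and endothelium, set intracellular pH and chloride, remove calcium after contraction, and pass adenine nucleotides and acylcarnitines through the inner mitochondrial membrane. Many of the best-known members were first described in kidney, intestine, liver or brain.

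Facts of the whole series bear on what follows. Spots that the scanner software marked well above background made up 69.7% to 77.7% of each Control array, 55.8% to 69.7% of each CoA array and 61.8% to 68.5% of Corrected 1, 2 and 4. Corrected 3 stood at 45.6%, its label says that it was excluded, and it was left out of every group value and test below, which leaves 3 Corrected arrays. The smooth muscle genes ACTA2, CALD1, DES and MYH11 were detected on all 12 arrays, and 0 of the 4 passed the criterion used below in any comparison. For marker lists the signals were summed and the sum put on the log2 scale, so a sum mostly follows its brightest genes. The 4 skeletal muscle genes measured had a sum of 8.57 to 10.21 in Control, 10.58 to 15.44 in CoA and 11.65 to 12.04 in Corrected. They did not move together in CoA vs Control, with log2 fold changes of 3.117 for TNNC2, 1.261 for CKM, -0.795 for ATP2A1 and -0.314 for MYH1. The 5 adipocyte genes had sums of 12.22 to 13.84, 8.97 to 12 and 10.95 to 13.17 in the same order of groups. The highest skeletal muscle sum, and a cardiac muscle sum of 14.02 against at most 10.46 on the other CoA arrays, belonged to CoA 2. All 4 CoA arrays shared a scan that held no other group, so scan and coarctation cannot be told apart. Corrected 1, 3 and 4 shared another scan, Corrected 2 shared one with Control 1, 2 and 4, and Control 3 had its own. Scan and group therefore cannot be told apart in CoA vs Corrected either. In Corrected vs Control only Corrected 2 shared a scan with Control arrays. Closeness of arrays was taken over probes detected on all 12 arrays whose mean signal was at or above the median of such probes. Control 3 and Control 4 differed there by a robust SD of 0.144 in log2 signal, against 0.284 for the next closest pair of arrays. Both were kept, with counts that average them to 1 sample given below. Other marker sums also lay apart from Control: the 2 globin genes at 15 to 17.90 in CoA against 18.28 to 18.86, the 1 nerve gene measured, NPY, at 5.49 to 8.48 in CoA and 5.66 to 6.10 in Corrected against 4.08 to 4.62, and the 6 T cell genes at 7.15 to 8.15 in Corrected against 8.96 to 9.21. These marker values move with the groups, as do the genes below, and their part in those results was not tested.

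Detection came first. An array spot was called detected when the scanner software marked it well above its local background, and a gene was tested when its probe was detected on at least 8 of 12 arrays. Among the 60 solute carrier genes, 33 were detected on all 12 arrays, 11 on 8 to 11 arrays, 11 on 1 to 7 arrays and 5 on none. The bile acid transporters SLC10A1 and SLC10A2, the outer hair cell protein prestin (SLC26A5), the inositol transporter SLC5A3 and the intestinal and renal neutral amino acid transporter SLC6A19 made up the 5 that were not well above background on any array. SLC26A5 was also the member with the dimmest probe, at a log2 signal of 1.19 to 1.38 on the 11 arrays used. The other 11 untested genes included SLC22A2, SLC22A4, SLC3A1, SLC46A1, SLC47A2, SLC4A2, SLC4A3, SLC4A9, SLC5A4 and SLC9A3. Per array, the number of members detected was 45 to 52 in Control, 39 to 50 in CoA and 44 to 46 in Corrected.

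**Figure D1:**
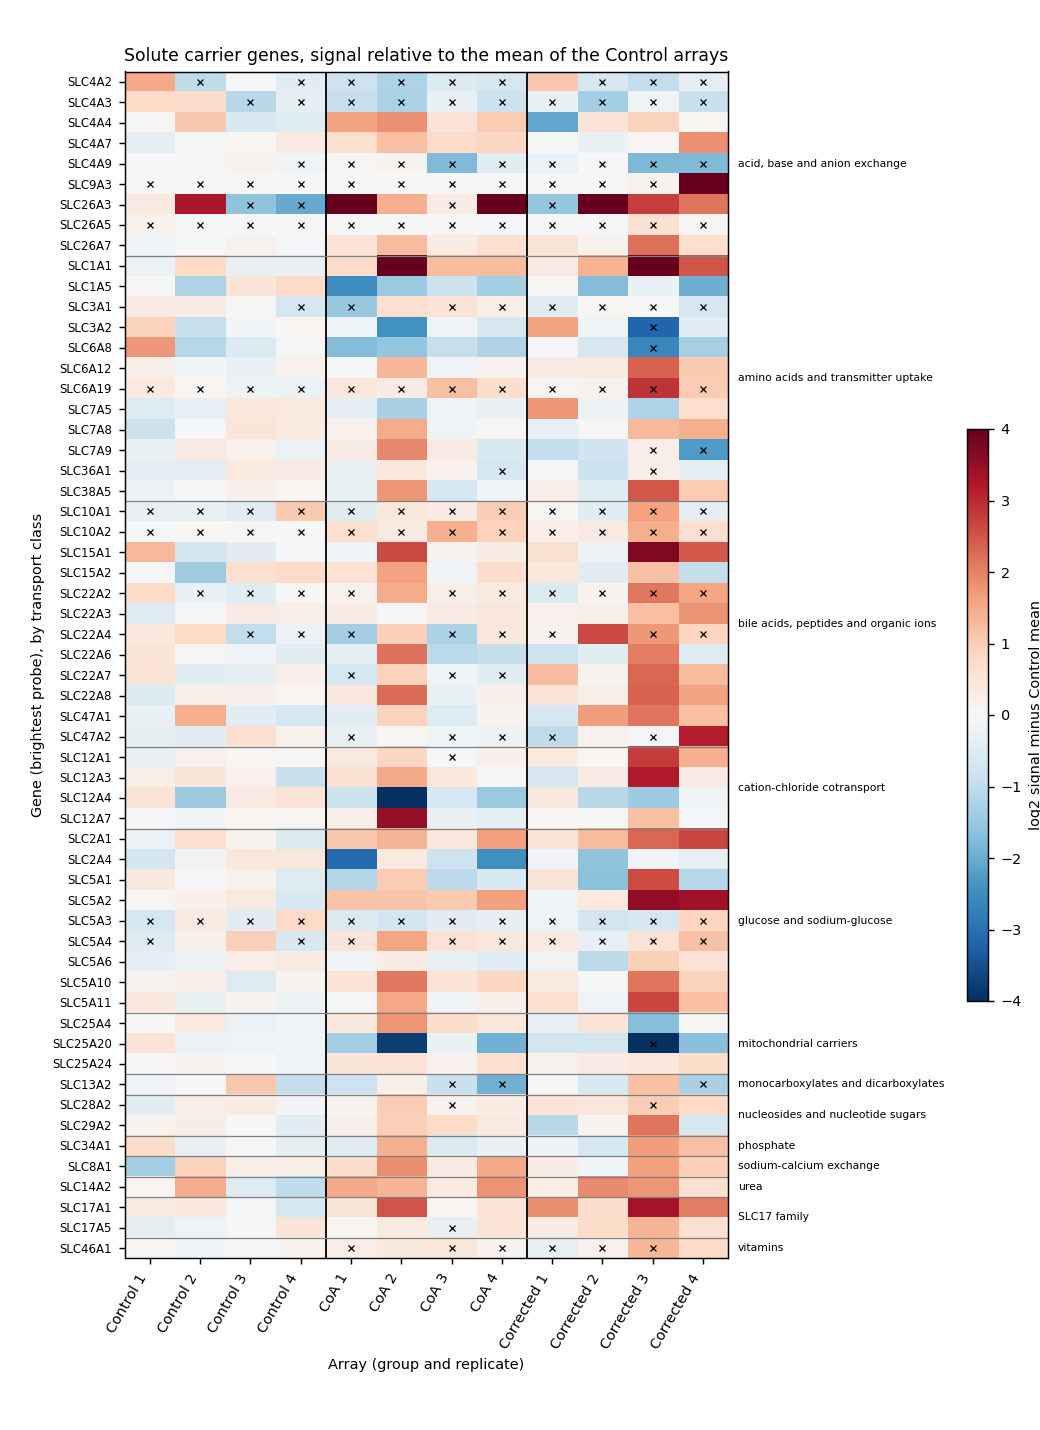
Log2 signal of the solute carrier genes named here on each of the 12 arrays, minus the mean of the 4 Control arrays of that gene, with genes grouped by transport class and a cross where the probe was not well above background. Colours run from -4 to 4 and larger differences take the end colour; CoA 2 and Corrected 4 carry much of the red among the arrays used, and Corrected 3, left out of the tests, carries more.

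The question asked of CoA vs Control was which genes differ while the narrowing persists. Signals are log2 values of the processed signal after quantile normalisation, and a gene was called when it differed by more than 2-fold with an unadjusted p under 0.05 in limma. By this criterion the glucose transporter SLC2A1 was 2.17-fold, the sodium-sugar cotransporter SLC5A10 2.01-fold, the glutamate transporter SLC1A1 3.84-fold and the urea transporter SLC14A2 2.39-fold higher in CoA. The acylcarnitine, glutamine, creatine and potassium-chloride carriers SLC25A20, SLC1A5, SLC6A8 and SLC12A4 were lower, by log2 fold changes of -1.83, -1.55, -1.35 and -1.79. Of the 44 solute carrier genes tested, 8 were called, 4 higher and 4 lower, which is 18.2% beside 8.81% of all 27283 probes tested. Over all probes 3.59% were called higher and 5.22% lower, and scaling to the 75th percentile turned that split, from 979 higher and 1425 lower to 1529 and 1221 over all probes and from 4 and 4 to 7 and 3 among the solute carriers. After Benjamini-Hochberg adjustment over all probes, 0 of the 44 passed, with a lowest adjusted p of 0.274 in limma, whereas 10 had an unadjusted p under 0.05 (22.7% beside 14.2% of all probes). The median log2 fold change of the 44 was 0.39, beside 0.06 for all probes, with 31 above 0 and 13 below. With Control 3 and 4 as 1 sample only SLC25A20 and SLC6A8, both lower, were still called.

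**Figure D2:**
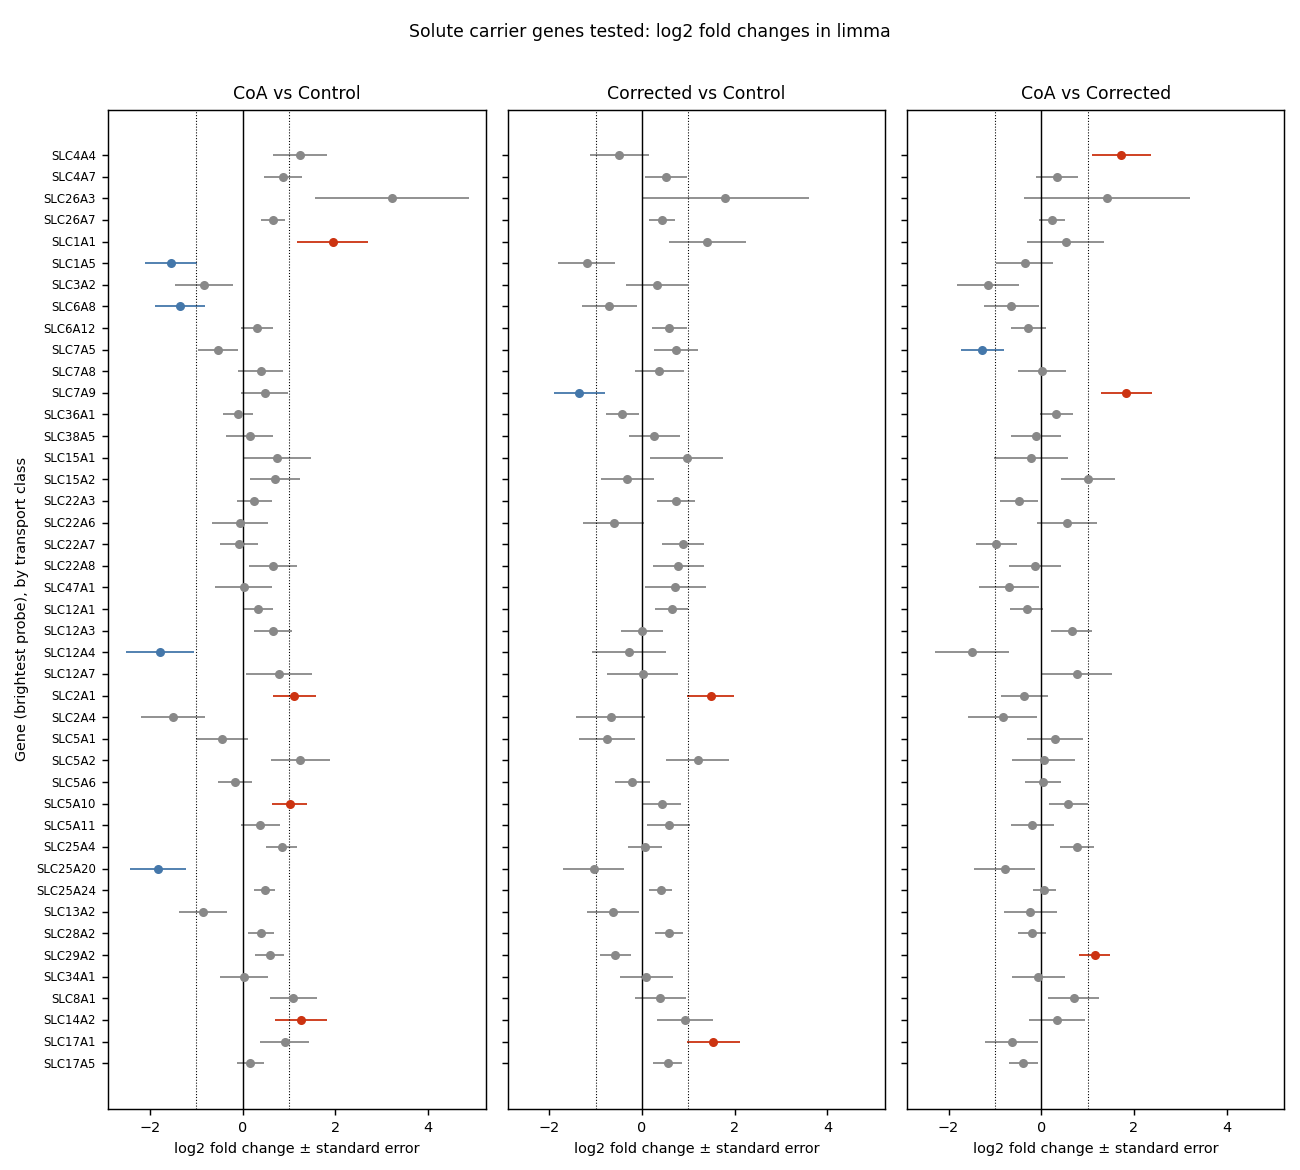
Log2 fold changes with their standard errors from limma for the tested solute carrier genes named here, one panel per comparison. Red points were called higher and blue points called lower, grey points were not called, and dotted lines mark 2-fold; 8, 3 and 4 genes are coloured in the 3 panels.

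The SLC2 and SLC5 families, which hold sugar carriers and also the inositol transporter SLC5A3 and the vitamin transporter SLC5A6, contributed 9 genes, of which 7 were tested and 2 were called, both higher. SLC2A1 encodes the glucose transporter responsible for basal uptake in most cells, and its log2 signal was 10.47, 11.39, 10.86 and 10.14 on Control 1 to 4, 11.79, 12.06, 11.13 and 12.34 on CoA 1 to 4, and 11.23, 11.99 and 13.38 on Corrected 1, 2 and 4. Only Control 2 reached above the lowest CoA and Corrected arrays. The means were 10.72 ± 0.53 (SD, n = 4) in Control, 11.83 ± 0.52 (n = 4) in CoA and 12.20 ± 1.09 (n = 3) in Corrected. In CoA vs Control the log2 fold change was 1.12 (SE 0.47), with an unadjusted p of 0.0357 and an adjusted p of 0.327 in limma and an exact permutation p of 0.057. All 5 SLC2A1 probes were higher in CoA, by 0.98 to 1.30 on the log2 scale. The call was kept in 19 of 26 alternative settings, and those that lost it included leaving out Control 1, Control 3, Control 4, CoA 1, CoA 2 or CoA 4, where the log2 fold change was between 0.92 and 1.16.

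SLC5A10, a sodium-coupled carrier of mannose and fructose known from the kidney, had a log2 signal of 5.71, 5.84, 5.05 and 5.67 on the Control arrays and 6.13, 7.69, 6.11 and 6.39 on the CoA arrays. The groups did not overlap, and CoA 2 stood well above the other CoA arrays. Its log2 fold change was 1.01 (SE 0.39), with an unadjusted p of 0.0239 and an adjusted p of 0.304 in limma, and the exact permutation p was 0.029, the smallest that 4 against 4 arrays allow. Without CoA 2 it was 0.64 and the call was lost. SLC5A2, the sodium-glucose cotransporter of the renal proximal tubule, gave 5.39, 5.53, 5.68 and 4.72 in Control, 6.47, 6.46, 6.38 and 6.98 in CoA, and 5.16, 5.71 and 8.72 in Corrected. Every CoA array was above every Control array, and Corrected 4 lay far above the other Corrected arrays. The log2 fold change of 1.24 (SE 0.63) was not called, with an unadjusted limma p of 0.0756 and an exact permutation p of 0.029, and it was called in 6 of 26 alternatives, among them those without Corrected 4, without Corrected 1, with array weights and with scan as a random block.

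SLC2A4, the insulin-regulated glucose transporter of muscle and fat, was named after its values were seen because its probes agreed. It measured 11.86, 12.43, 13.02 and 13.03 on the Control arrays, 9.46, 12.97, 11.76 and 10.12 on the CoA arrays, and 12.49, 10.99 and 12.26 on the Corrected arrays. CoA 1 and CoA 4 were the lowest of all arrays used, and CoA 2 lay among the Control arrays. The 5 detected probes had log2 fold changes of -1.77 to -1.51 in CoA vs Control, and the brightest, at -1.51 (SE 0.69), was not called, with an unadjusted limma p of 0.0525 and an exact permutation p of 0.114. CoA 1 and CoA 4 were also the arrays with the lowest summed adipocyte signal in that group, 8.97 and 11 against 11.65 on CoA 2 and 12 on CoA 3, and the part of fat cells in the SLC2A4 values was not tested.

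**Figure D3:**
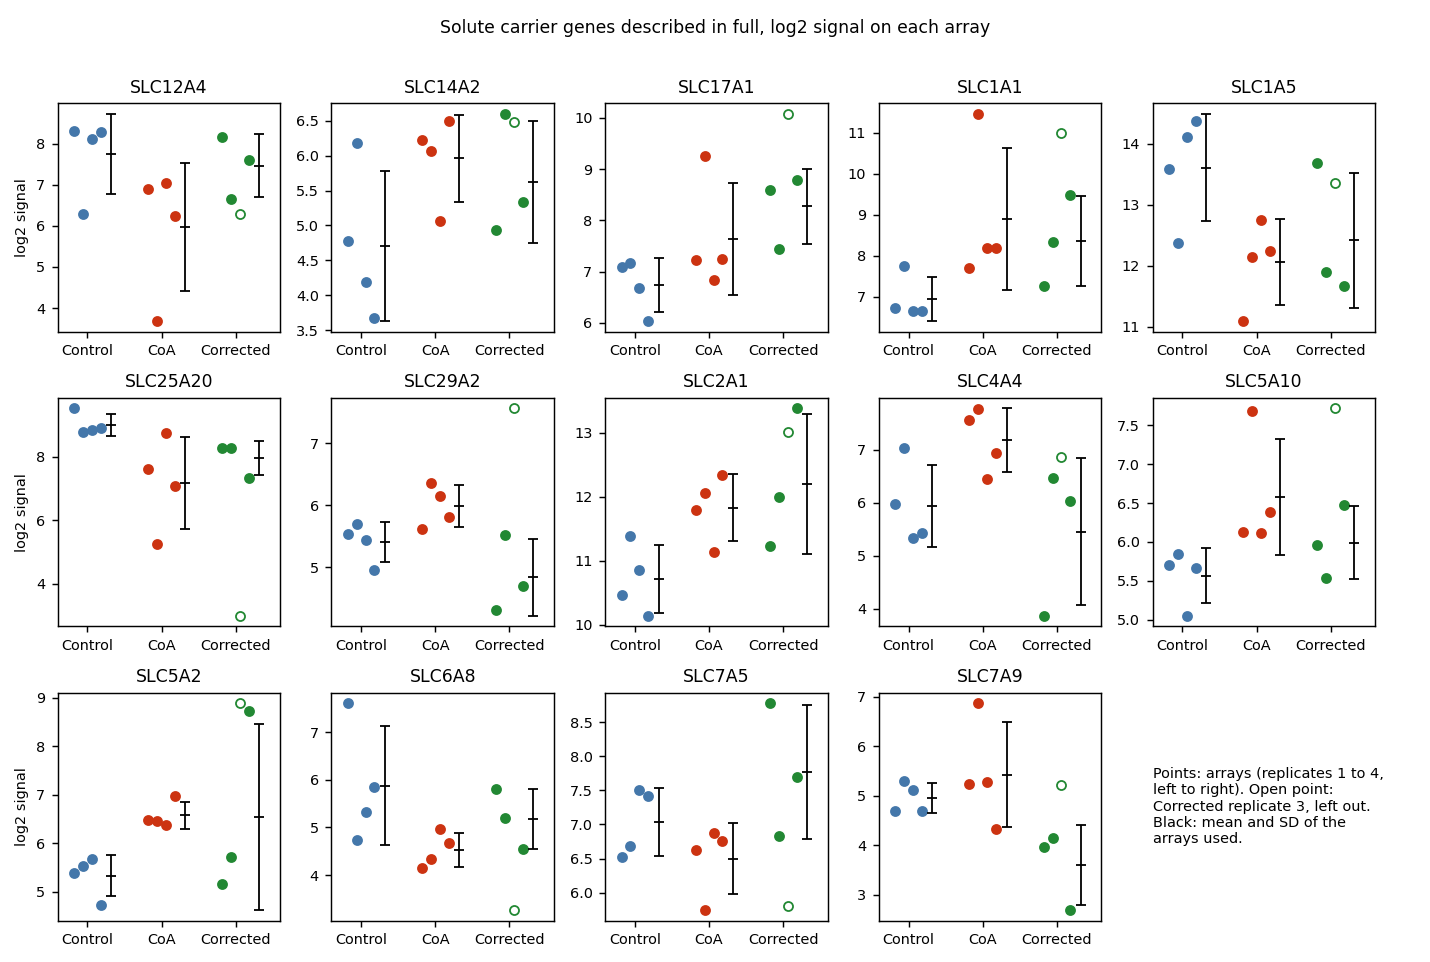
Log2 signal on each array (points, replicates 1 to 4 from left to right) of the 14 solute carrier genes that were called in a comparison or lay apart from Control by more than 2-fold, with the mean and SD of the arrays used in black. The open point is Corrected 3, which was left out; SLC5A2, SLC5A10 and SLC25A20 show no overlap between the 4 Control and the 4 CoA arrays.

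Carriers of amino acids and related solutes (SLC1, SLC3, SLC6, SLC7, SLC36 and SLC38) contributed 12 genes, 10 of them tested, with 1 called higher and 2 called lower in CoA. SLC1A1, a sodium-coupled glutamate and cysteine transporter, measured 6.73, 7.76, 6.66 and 6.65 on the Control arrays, 7.70, 11.46, 8.20 and 8.20 on the CoA arrays, and 7.27, 8.33 and 9.47 on the Corrected arrays. CoA 1 lay just under Control 2, and CoA 2 was far above the other CoA arrays. CoA exceeded Control by a log2 fold change of 1.94 (SE 0.77), with an unadjusted p of 0.0283 and an adjusted p of 0.311 in limma. The exact permutation p was 0.057. Without CoA 2 the log2 fold change was 1.08 and the gene was still called. The call was lost without Control 1, Control 3 or Control 4, with Control 3 and 4 as 1 sample, and with the mean over the detected probes. The second detected probe of SLC1A1 gave -0.13, so the probes of this gene did not move together.

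SLC1A5 exchanges glutamine and other neutral amino acids across the plasma membrane. Its log2 signal was 13.59, 12.38, 14.11 and 14.37 on the Control arrays, 11.09, 12.14, 12.76 and 12.25 on the CoA arrays, and 13.69, 11.89 and 11.67 on the Corrected arrays. The CoA arrays were below 3 of the 4 Control arrays, with Control 2 inside their range. CoA vs Control gave a log2 fold change of -1.55 (SE 0.56), with an unadjusted p of 0.0187 and an adjusted p of 0.292 in limma and an exact permutation p of 0.057. With arrays scaled to the 75th percentile instead of quantile normalised it was -1.06, and leaving out Control 3, Control 4 or CoA 1 gave -1.39 to -1.23, each with the call lost.

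SLC6A8, the creatine transporter, gave 7.61, 4.73, 5.33 and 5.84 on the Control arrays, 4.14, 4.34, 4.96 and 4.67 on the CoA arrays, and 5.80, 5.19 and 4.54 on the Corrected arrays. Control 1 was the highest array and Control 2 lay within the CoA range. With a log2 fold change of -1.35 (SE 0.55) it had an unadjusted p of 0.031 and an adjusted p of 0.317 in limma and an exact permutation p of 0.057, and without Control 1 the log2 fold change was -0.77 and not called. Among the other amino acid carriers, SLC7A8 (5 detected probes at 0.39 to 0.52) and the betaine carrier SLC6A12 (0.31) were not called.

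Mitochondrial carriers were represented by 3 genes, and the CoA and Control arrays did not overlap for any of the 3, where 10.2% of all probes tested had no overlap. With the mean over a gene's detected probes in place of the brightest probe, the groups overlapped for all 3. SLC25A20 brings acylcarnitines into the mitochondrion for fatty acid oxidation. It measured 9.52, 8.78, 8.83 and 8.89 on the Control arrays, 7.61, 5.25, 8.75 and 7.08 on the CoA arrays, and 8.27, 8.28 and 7.33 on the Corrected arrays. All CoA and Corrected arrays were below all Control arrays, although CoA 3 lay just under the lowest Control array. The log2 fold change in CoA vs Control was -1.83 (SE 0.61), with an unadjusted p of 0.0114 and an adjusted p of 0.274 in limma and an exact permutation p of 0.029, and the second probe gave -1.89. The call was kept in 24 of 25 alternatives, was lost with all 12 arrays in the fit, and stood at -1.19 without CoA 2. Adipocyte and erythroid marker signals were also lower in CoA, where 2 of 4 adipocyte genes and 2 of 2 globin genes tested were called lower, and their part in the SLC25A20 values was not tested.

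SLC25A4 exchanges ADP for ATP across the inner mitochondrial membrane and is the form abundant in muscle, and its probe was the brightest of the members. It gave 15.01, 15.40, 14.76 and 14.87 on the Control arrays, 15.47, 16.76, 15.72 and 15.47 on the CoA arrays, and 14.67, 15.52 and 15.06 on the Corrected arrays. Every CoA array was above every Control array. The largest value was on CoA 2, the array with the highest skeletal and cardiac muscle marker sums. Its smooth muscle sum, at 16.64, was the lowest of the CoA arrays. The log2 fold change of 0.84 (SE 0.34) had an unadjusted limma p of 0.0291 and an exact permutation p of 0.029 but stayed under 2-fold, all 5 probes were higher by 0.67 to 0.88, and without CoA 2 and Corrected 4 it was 0.54. SLC25A24, a calcium-regulated carrier of ATP-magnesium and phosphate, was 0.47 (SE 0.23) higher, also without overlap, with an unadjusted limma p of 0.0603.

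In ion and acid-base transport, SLC12A4, a potassium-chloride cotransporter that takes part in cell volume control, was the one gene called lower. Its log2 signal was 8.30, 6.29, 8.11 and 8.29 on the Control arrays, 6.89, 3.68, 7.03 and 6.25 on the CoA arrays, and 8.16, 6.64 and 7.59 on the Corrected arrays. Control 2 lay among the CoA arrays and CoA 2 far below all others. Its log2 fold change was -1.79 (SE 0.74), with an unadjusted p of 0.0342 and an adjusted p of 0.324 in limma and an exact permutation p of 0.086, and without CoA 2 it was -1.03 and not called. Of the other cation-chloride cotransporters, SLC12A7 lay between 9.48 and 10.09 on every array used except CoA 2, at 13.39, and its 5 probes averaged 0.69 to 0.79 higher in CoA, while SLC12A1 and SLC12A3 differed by 0.32 and 0.65 without a call.

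Sodium-bicarbonate cotransport and anion exchange had 5 genes tested, all 5 above 0 and none called. SLC4A7, an electroneutral sodium-bicarbonate cotransporter of smooth muscle and other cells, was 0.87 (SE 0.42) higher with no overlap, and SLC26A7, an anion exchanger, was 0.66 (SE 0.26) higher with no overlap and an unadjusted limma p of 0.0254. SLC26A3, the intestinal chloride-bicarbonate exchanger, had the largest fitted log2 fold change of the 44, at 3.21 (SE 1.66, unadjusted limma p 0.0792), but ranged from 1.71 to 6.98 within Control and from 4.03 to 9.33 within CoA, and it was detected on only 8 arrays. The sodium-calcium exchanger SLC8A1, which extrudes calcium from muscle cells, was higher for all 5 detected probes, by 0.88 to 1.09, and its brightest probe was not called, with an unadjusted limma p of 0.0541.

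**Figure D4:**
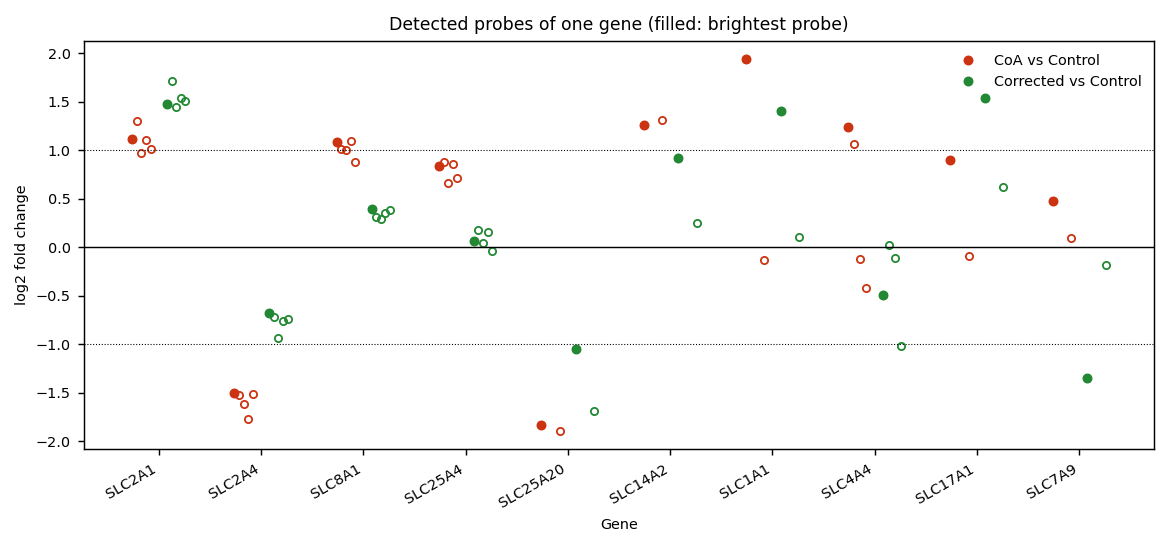
Log2 fold changes of every detected probe (filled point, the brightest) of 10 solute carrier genes in CoA vs Control (red) and Corrected vs Control (green), with dotted lines at 2-fold. The genes were chosen after their values were seen. In CoA vs Control the 5 probes of SLC2A1, SLC2A4, SLC8A1 and SLC25A4 lie close together, while the probes of SLC1A1, SLC4A4 and SLC17A1 spread apart. The probes of SLC7A9 spread apart in Corrected vs Control.

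The urea transporter SLC14A2, known from the collecting duct, was called higher in CoA. It measured 4.78, 6.18, 4.19 and 3.68 on the Control arrays, 6.22, 6.07, 5.07 and 6.49 on the CoA arrays, and 4.93, 6.60 and 5.34 on the Corrected arrays. Control 2 was inside the CoA range, and the groups overlapped. With a log2 fold change of 1.26 (SE 0.56), SLC14A2 had an unadjusted p of 0.0462 and an adjusted p of 0.347 in limma and an exact permutation p of 0.086, the second detected probe gave 1.31, and the call was kept in 14 of 26 alternatives, the losses including those without Control 1, 3 or 4 and without CoA 1, 2 or 4. The 7 tested carriers of peptides and organic ions had 0 calls in CoA vs Control, with 5 above 0 and a median log2 fold change of 0.25, and the nucleoside, phosphate and dicarboxylate carriers had none either.

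Corrected vs Control asked which differences were present after the suture had degraded, and it shares its Control arrays with the comparison above. Here 3 of 44 genes were called, 2 higher and 1 lower, or 6.82% beside 5.39% of all probes (2.41% called higher and 2.98% lower). None of the 44 had an adjusted p under 0.05 in limma (lowest 0.485), and 3 had an unadjusted p under 0.05, or 6.82% beside 8.35%. The median log2 fold change was 0.38, beside 0.03 for all probes, with 29 above 0 and 15 below. With 4 against 3 arrays the smallest exact permutation p is 0.057, so no single gene could pass 0.05 by that test. Leaving out 1 array moved the count of 3 to between 0, without Corrected 4, and 7, without Corrected 1, and with Control 3 and 4 as 1 sample it was 2. Whether the number of called genes differs from that in CoA vs Control was not tested.

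SLC2A1, with the array values given above, was 1.48 (SE 0.50) higher in Corrected on the log2 scale, with an unadjusted p of 0.0133 and an adjusted p of 0.485 in limma and an exact permutation p of 0.114. Its 5 probes were higher by 1.45 to 1.72. Corrected 4 was the highest array, and without it the log2 fold change was 0.90 and the call was lost. In CoA vs Corrected SLC2A1 differed by -0.37 (SE 0.50), with an unadjusted limma p of 0.479.

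SLC17A1 carries urate and phosphate and is known from the renal proximal tubule. Its log2 signal was 7.09, 7.17, 6.67 and 6.03 on the Control arrays, 7.23, 9.26, 6.83 and 7.24 on the CoA arrays, and 8.60, 7.44 and 8.79 on the Corrected arrays. All Corrected arrays were above all Control arrays, whereas CoA overlapped both. In Corrected vs Control the log2 fold change was 1.54 (SE 0.58), with an unadjusted p of 0.0215 and an adjusted p of 0.540 in limma and an exact permutation p of 0.057. The other detected probe gave 0.62, and the call was lost without Control 4, Corrected 1 or Corrected 4, at 1.28 to 1.38.

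SLC7A9 is the light chain of the renal cystine and basic amino acid transporter. It measured 4.69, 5.29, 5.12 and 4.70 on the Control arrays, 5.24, 6.88, 5.27 and 4.33 on the CoA arrays, and 3.97, 4.15 and 2.68 on the Corrected arrays, where Corrected 4 was not well above background. The Corrected arrays were below every Control and every CoA array. In Corrected vs Control it fell by 1.35 on the log2 scale (SE 0.55), with an unadjusted p of 0.0316 and an adjusted p of 0.566 in limma and an exact permutation p of 0.057, and without Corrected 4 the log2 fold change was -0.89 and the call was lost, as it was with Control 3 and 4 as 1 sample. The second detected probe gave -0.18. Its partner subunit SLC3A1 was among the genes not tested.

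Groups did not overlap for 7 of the 44 genes in CoA vs Control, 6 higher and 1 lower, or 15.9% beside 10.2% of all probes (6.87% higher and 3.38% lower). In Corrected vs Control they did not overlap for 7 as well, 4 higher and 3 lower, or 15.9% beside 8.85% (5.26% and 3.59%). The 7 in the first comparison were SLC5A2, SLC5A10, SLC4A7, SLC26A7, SLC25A4 and SLC25A24, all higher, and SLC25A20, lower. In Corrected vs Control they were SLC17A1, SLC25A24, the purine nucleoside carrier SLC28A2 (0.59) and SLC6A12 (0.59), all higher, and SLC7A9, SLC25A20 and the organic anion transporter SLC22A6 (-0.61), all lower. SLC25A20 was -1.05 (SE 0.65) in that comparison and was not called, with an unadjusted limma p of 0.138. Averaging Control 3 and 4 to 1 sample gave 7 in CoA vs Control and 10 in Corrected vs Control. Leaving out Corrected 2, Corrected 1 or Control 2 raised these counts, to 16 and 13 in Corrected vs Control and to 17 in CoA vs Control. Averaging arrays or leaving an array out can only keep or raise such a count, because fewer values must then lie apart.

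CoA vs Corrected compared the permanent with the degradable suture directly. Here 4 of 44 genes were called, 3 higher and 1 lower in CoA, or 9.09% beside 2.77% of all probes (1.44% higher and 1.33% lower). The groups did not overlap for 2, both higher in CoA, or 4.55% beside 4.24% (2.33% higher and 1.90% lower). The lowest adjusted p in limma was 1, so 0 genes passed after adjustment, and 4 had an unadjusted p under 0.05, or 9.09% beside 4.31%. The median log2 fold change was -0.05, beside 0.02 for all probes. SLC7A9 was 1.83 (SE 0.55) higher in CoA, with an unadjusted limma p of 0.00668 and an exact permutation p of 0.057, and without CoA 2 and Corrected 4 together it was 0.89 and not called.

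SLC29A2, an equilibrative nucleoside transporter, gave 5.54, 5.70, 5.43 and 4.96 on the Control arrays, 5.62, 6.36, 6.15 and 5.81 on the CoA arrays, and 4.30, 5.52 and 4.69 on the Corrected arrays. All CoA arrays were above all Corrected arrays, with Control between and overlapping both. The log2 fold change in CoA vs Corrected was 1.15 (SE 0.34), with an unadjusted limma p of 0.00606, the smallest of the 44 genes, and an exact permutation p of 0.057. Without Corrected 1 it was 0.88 and not called.

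SLC4A4, the electrogenic sodium-bicarbonate cotransporter, measured 5.98, 7.03, 5.34 and 5.44 on the Control arrays, 7.57, 7.77, 6.46 and 6.95 on the CoA arrays, and 3.87, 6.47 and 6.04 on the Corrected arrays. CoA 3 fell just below Corrected 2, and Corrected 1 was the lowest array. The log2 fold change in CoA vs Corrected was 1.73 (SE 0.63), with an unadjusted limma p of 0.0192 and an exact permutation p of 0.114. The 4 detected probes ranged from -0.02 to 1.73, and without Corrected 1 the brightest gave 0.93 and was not called.

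SLC7A5, the light chain of the leucine-preferring exchanger, was the gene called lower in CoA than in Corrected. Its log2 signal was 6.52, 6.69, 7.50 and 7.42 on the Control arrays, 6.63, 5.74, 6.87 and 6.76 on the CoA arrays, and 8.78, 6.83 and 7.69 on the Corrected arrays. CoA 3 was just above Corrected 2, and the other CoA arrays were below all Corrected arrays. CoA vs Corrected gave a log2 fold change of -1.27 (SE 0.47), with an unadjusted limma p of 0.021 and an exact permutation p of 0.114. Its heavy chain SLC3A2 was -1.16 (SE 0.67) in the same comparison and was not called, with an unadjusted limma p of 0.111, and without Corrected 1 SLC7A5 was at -0.76 and not called.

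Single arrays stood out from their group among the solute carrier genes. CoA 2 was the highest CoA array for 31 of the 44 genes, or 70.5%, whereas it was highest for 41.5% of all probes tested. Corrected 4 was the highest Corrected array for 23 genes, or 52.3% beside 38.7%, and CoA 3 was the lowest CoA array for 23, or 52.3% beside 29%. The median deviation of CoA 2 from the median of its own group was 0.75 on the log2 scale, and for each of the other 10 arrays it was between -0.16 and 0.07, although with 3 arrays in Corrected the middle one is at 0 by construction. CoA 2 or Corrected 4 was the highest of the 11 arrays for 32 of the 44 genes, a count that was not taken over all probes. CoA 2 was the array with skeletal muscle and cardiac muscle sums of 15.44 and 14.02, and Corrected 4 had a cardiac sum of 12.12 against 9.35 and 9.69 on the other Corrected arrays used, and the part of muscle tissue in these levels was not tested. Without CoA 2 the count of called genes in CoA vs Control was 5 rather than 8, with 1 higher and 4 lower.

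**Figure D5:**
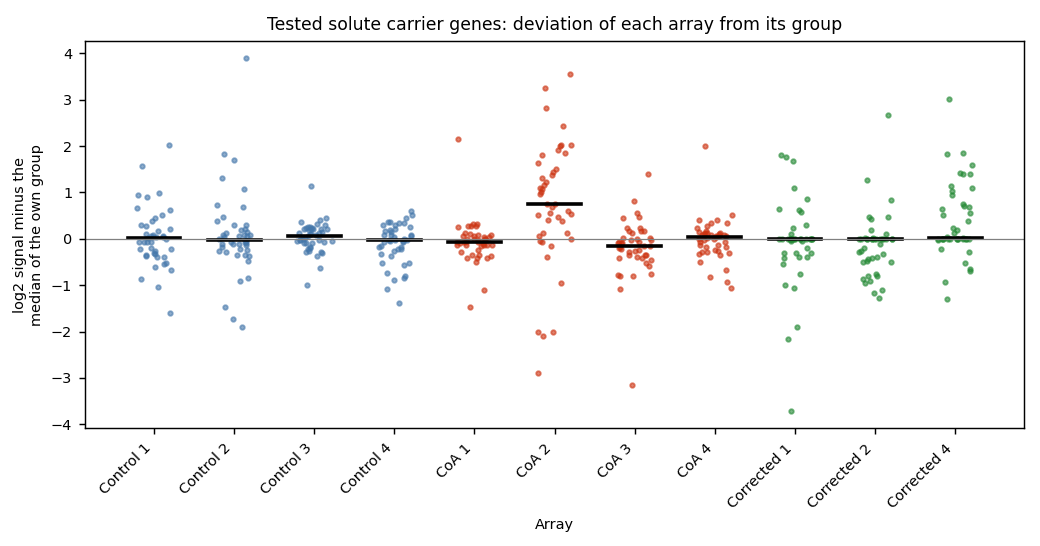
Deviation of each of the 11 arrays used from the median of its own group, in log2 signal, for the 44 solute carrier genes tested (points) with the median over genes (black bar). The bar of CoA 2 lies at 0.75, and those of the other arrays lie between -0.16 and 0.07.

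Of 16 genes of other membrane transporters, 9 were tested, all of them ion pumps, which provide the gradients that many solute carriers use, or ABC transporters. ATP1B1, a beta subunit of the sodium-potassium pump, was 1.22 (SE 0.39, unadjusted limma p 0.0106) higher in CoA and 1.01 higher in Corrected (unadjusted limma p 0.0371) than in Control. ATP2A1, the calcium pump of fast skeletal muscle, was -2.62 in CoA vs Corrected (unadjusted limma p 0.00977), with 8.78 on Corrected 2 and 6.71 on Corrected 1 against 4.04 on Corrected 4.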

How the data were processed

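RNA from 12 rabbit aortas was measured on 12 single-colour Agilent arrays. The authors scanned them with Agilent Feature Extraction 11.0.1.1, and per the file headers the deposited intensity values are the processed signal, background-subtracted and not normalised between arrays, beside the median spot and background intensities and 0 or 1 flags; their number limits the precision. From the processed intensity, log2 values were quantile normalised over 43803 non-control spots of 12 arrays, spots of a probe were averaged, and 27283 of 43603 probes detected on at least 8 arrays were fitted with limma 3.58.1 in R 4.3.3 (lmFit and eBayes, 3 groups, 11 arrays, two-sided, Benjamini-Hochberg over all 27283). Quantile normalisation and the minimum of 8 of 12 arrays follow the study's methods. The study also counted probes past 2-fold with p under 0.05, and used a higher fold bound for its further steps. The well-above-background flag and limma were chosen here. The steps were tested on simulated data. Exact permutation tests used scipy 1.17.1.

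Symbols came from the RefSeq accession of each probe, and 3368 probes (7.72%) had one, for 1264 genes. Members and lists were chosen with earlier results of these data known. Values on every array are given for members called in any comparison, for those apart from Control without overlap and by more than 2-fold, and for the brightest and dimmest; others are given by ranges and counts, and other transporters are named when called. SLC2A4, SLC8A1 and further genes named with a value were chosen after their values were seen. Levels of different probes were not compared. Results of a few genes are not reported here, though counts include them.

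Alternatives changed the scaling (75th percentile), background correction (normexp, offset 50), detection filter, arrays fitted, array weights, variance prior, scan or replicate number as a block, near-identical arrays, probe choice and each array in turn. An alternative without CoA 2 and Corrected 4 was chosen after seeing the data. The same replicate number does not mark the same animal or day, and deviations of same-numbered arrays correlated between -0.445 and 0.448, so arrays were not paired.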

Additional observations from a re-analysis of the deposited data

Results flagged for a closer look

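Dixon's ratio was taken for 30 groups of 4 arrays of the genes described in full. In 6 of them the gap of an array to its nearest neighbour was a larger part of the group's range than the critical value allows. Separate, unselected groups of normal values would pass that bound about 1 time in 20. These genes were picked from the same values and share the same arrays, so 6 of 30 cannot be set against that rate. SLC1A1 had both Control 2, at 7.76 with the next array at 6.73, and CoA 2, at 11.46 with the next at 8.20. SLC17A1 had CoA 2 at 9.26 with the next CoA array at 7.24. SLC12A4 had Control 2 low, at 6.29 with the next Control array at 8.11. SLC25A20 had Control 1 at 9.52 with the next at 8.89, and SLC5A2 had CoA 4 at 6.98 with the next at 6.47, both gaps under 2-fold. Causes of these single-array values were not tested.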

How the results depend on the processing

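No fold change of a gene called or apart without overlap by more than 2-fold changed sign in any alternative. Counts of called genes moved as follows. In CoA vs Control (8) there were 4 with normexp, 13 with scan as a random block and 2 with Control 3 and 4 as 1 sample. Leaving out 1 array gave 2 (without Control 3 or Control 4) to 12 (without CoA 3), with 4 without Control 1 or CoA 1 and 5 without CoA 2. In Corrected vs Control (3) there were 6 with all 12 arrays, 7 with array weights, 5 with only the groups compared, 0 with scan as a fixed block, which compares Corrected 2 with Control 1, 2 and 4, and 1 without CoA 2 and Corrected 4. Leaving out 1 array gave 0 (without Corrected 4) to 7 (without Corrected 1), with 5 without CoA 2 or Corrected 2. In CoA vs Corrected (4) there were 0 with normexp, and 2 (without Corrected 1) to 6 (without CoA 2) when 1 array was left out. The fixed scan block could not be fitted for CoA.

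After adjustment, 22 of the 44 genes passed in CoA vs Control with array weights and 1 with scan as a random block, against 0 in every other setting and comparison, and leaving out 1 array gave 0. Over all probes, array weights gave 10928 and the random scan block 870. Genes without overlap in CoA vs Control (7) were 3 with the mean of a gene's probes and 7 to 17 (without Control 2) when 1 array was left out, 12 without CoA 3. In Corrected vs Control (7) they were 10 with Control 3 and 4 as 1 sample, 4 with the 75th percentile scaling, 4 with detection on all 12 arrays and 7 to 16 (without Corrected 2), 13 without Corrected 1. In CoA vs Corrected (2) they were 1 with normexp, 1 with detection on all 12 arrays, 0 with all 12 arrays with or without weights, 4 with the mean of probes, 13 without CoA 2 and Corrected 4, and 2 to 7 (without Corrected 2 or Corrected 4), 6 without CoA 2 and 5 without CoA 3 or Corrected 1. Leaving out or averaging arrays can only keep or raise the counts without overlap. Adding Corrected 3, or asking for detection on all 12 arrays, can only keep or lower them. The cause of the other moves was not tested.

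Scaling to the 75th percentile moved the median of all probes from 0.06 to 0.22 in CoA vs Control and from 0.03 to 0.13 in Corrected vs Control. The replicate number was also used as a block, although the numbers do not pair the rabbits. It gave 10, 2 and 6 called genes in the comparisons in the order above. The counts after adjustment did not move, and SLC17A1 (1.39) was no longer called in Corrected vs Control. A block cannot change the counts without overlap, which rest on the array values alone. Genes near background have the least precise values: 11 of the 44 were not well above background on every array, among them SLC26A3 and SLC7A9.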

Other observations

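Corrected 3, the array left out, stood apart as a whole array, with 45.6% of its spots well above background. The counts given next were not taken over all probes, so they do not show a trait of solute carriers. The signal of Corrected 3 was above all other Corrected arrays for 29 of the 44 genes and below all of them for 6. It was the highest of all 12 arrays for 21 and the lowest for 4. The median difference from the mean of the other Corrected arrays was 1.41 on the log2 scale, with a range from -4.97 for SLC25A20 to 3.36. SLC25A20 was not well above background on it, with a log2 signal of 2.99, and only 38 of the 60 members were detected on it, the fewest of any array.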
